A study of Mus musculus with 2 samples.

Results

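Cluster 20 of the authors' deposited clustering of mouse aortic cells held 53 of 7917 cells. Its cells were taken as those whose deposited cluster number was 20, with each barcode counted once. Of these, 26 came from the Apoe knockout library of 2428 cells and 27 from the double knockout library of 5489 cells. The authors' cell class called 25 of the 26 and 26 of the 27 cells endothelial (EC), and the remaining cell of each library smooth muscle (SMC). The label did not describe the cells equally in the libraries. In the Apoe knockout library, 20 of the 26 cells carried several transcripts of T cell receptor and other T cell genes and few of endothelial genes. In the double knockout library, 16 of the 27 cells carried endothelial transcripts, led by Kdr, Gpihbp1, Fabp4 and Cd36, and none of the 27 carried a transcript of the T cell list. The other 11 double knockout cells and 5 of the other Apoe knockout cells carried few transcripts of either list. Like all 53 cells they held contractile transcripts of smooth muscle, in numbers that overlapped those of the rest cell by cell. Of the 5, 1 shallow cell held 3 transcripts of the T cell list and 9 contractile ones, and another held 12 of macrophage genes. The remaining Apoe knockout cell, also shallow, had endothelial transcripts.

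Both libraries came from aortas that had been taken apart with enzymes after 12 weeks of western diet, and in both the mice lacked Apoe, the lipoprotein ligand whose loss raises plasma cholesterol and leads to atherosclerosis on such a diet. The first genotype was Apoe−/− alone, and the second was EC-iDKO/Apoe−/−, by its name an inducible double knockout in endothelial cells. The labels do not name the genes deleted. From knowledge of the line they are Epn1 and Epn2, which encode the endocytic adaptors epsin 1 and epsin 2. The sources used here do not give the Cre driver, the inducing agent, the age or number of the mice, or when the libraries were made. Their protocol names CD31 microbeads (CD31 is the product of Pecam1) while the cell type label reads all cells, so the makeup of the cells can depend on the beads. With 1 library per genotype there was no replicate, no test was made, and every comparison describes these 2 libraries.

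T cells recognise peptides through the T cell receptor, whose constant chains (Trac, Trbc1, Trbc2) signal through the CD3 chains (Cd3d, Cd3e, Cd3g). The kinase Lck phosphorylates the CD3 chains. T cells enter the wall and adventitia of atherosclerotic arteries, where CD8 and CD4 cells both occur. Endothelial cells of capillaries in fat and muscle differ from those lining the aorta: they take up fatty acids with the help of Cd36 and Fabp4, and hold lipoprotein lipase on their surface through Gpihbp1.

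UMIs (unique molecular identifiers, each counting 1 captured transcript) were fewer per cell in the double knockout library, at a median of 769 against 3769.5. Within cluster 20 the median was 2095.5 UMIs per Apoe knockout cell (range 604 to 4656, 58322 in all) and 916 per double knockout cell (529 to 2446, 30159 in all). The median mitochondrial share was 2.45% and 3.34%. Levels are given as CPM, UMIs scaled to a total of 1000000 over the cells summed, or, for gene lists, as UMIs per 1000 UMIs. All intervals are at the 95% level and cover counting error only. The libraries shared 5 barcodes, 0 of them in cluster 20. In cluster 20, Epn1 gave 4 UMIs in Apoe knockout and 0 in double knockout cells, and Epn2 gave 3 and 0. In cluster 9, the largest endothelial cluster, Epn1 gave 10 and 2 UMIs (36.8 and 7.42 CPM) while Epn2 gave 20 and 26 (73.6 and 96.4 CPM). The cluster 20 counts are too few to check the label, and the place of the deletion relative to the counted 3' ends is not known here.

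The authors also deposited coarser clusterings of the same cells. At resolution 0.1, 21 Apoe knockout and 16 double knockout cells of cluster 20 fell in group 2, a group of 728 cells of which 67.0% were called endothelial and 194 cells were called immune. The other 5 and 11 fell in group 0, a group of 6123 cells of which 96.3% were called smooth muscle. At resolutions 0.8 and 1 the former 37 cells formed a group of their own. The division did not hold at every resolution. At 0.6, 25 Apoe knockout and 26 double knockout cells of cluster 20 made up a single group of 51. At 0.4, 25 and 26 lay together in a group of 127. The division at resolution 0.1, which was made by the authors from the same genes, is used below. Its groups are called coarse group 2 and coarse group 0.

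In the Apoe knockout cells, the T cell list had 18 of its 20 genes in the table and gave 334 UMIs, or 5.73 per 1000 (5.13 to 6.38). Per cell it ranged from 0 to 28 UMIs with a median of 14. In the double knockout cells the same list gave 0 UMIs, which allows up to 0.122 per 1000 by the Poisson interval. The sum was at least 57.6-fold lower in the double knockout cells, with a floor of 3 UMIs for the population standing in for the 0. Of the 334 UMIs, 331 lay in coarse group 2, where 20 of 21 cells held between 7 and 28 each, and 3 lay in 1 cell of coarse group 0. The remaining Apoe knockout cell of coarse group 2 was the shallowest, with 604 UMIs and a mitochondrial share of 17.6%, and held 0 T cell and 11 endothelial UMIs.

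**Figure D1:**
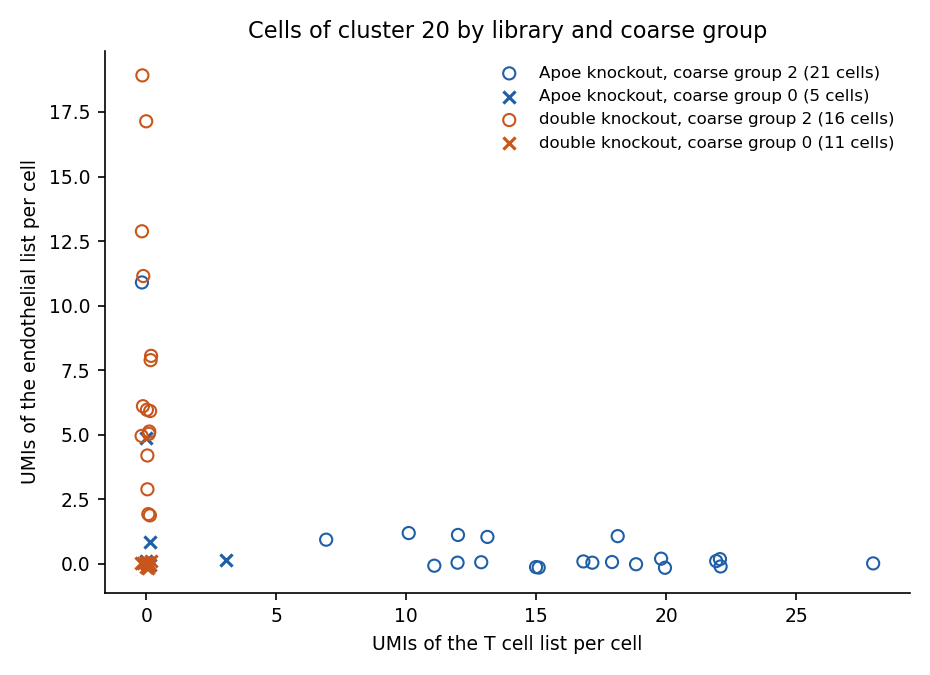
Each point is 1 cell of cluster 20, with UMIs of the T cell list on the x axis and UMIs of the endothelial list on the y axis. Colour gives the library and symbol the coarse group, and points are moved at random by up to 0.2 UMIs in each direction so that they can be told apart. The Apoe knockout cells of coarse group 2 lie along the x axis up to 28 UMIs, the double knockout cells of coarse group 2 along the y axis up to 19, and the coarse group 0 cells near the origin.

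Since the double knockout cells were shallower, every cell was also thinned to 500 UMIs. Then 21 of 26 Apoe knockout cells (80.8%, 60.6 to 93.4) had a UMI of the T cell list, against 0 of 27 double knockout cells, which allows a share of cells with such a UMI of up to 11.1% (3 cells of 27; the exact upper bound is 12.8%). Thinned to 1000 UMIs the counts were 19 of 24 and 0 of 11, the latter allowing up to 27.3% by the same limit (exact upper bound 28.5%). Such UMIs were also seen in cells of other kinds. In the SMC class the thinned share was 1.24% of 1535 Apoe knockout cells and 0.432% of 4400 double knockout cells, and unthinned it was 6.84% and 0.976%, at median depths of 4856 and 771 UMIs. The Apoe knockout share in cluster 20 was thus far above that of its library's SMC class, thinned or not (80.8% unthinned), and the difference between libraries was present at equal depth.

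The receptor itself was measured in the Apoe knockout cells. Cd3g (chromosome 9, 44969572 to 44980431, minus strand, mm10) gave 39 UMIs in 15 cells. Its neighbours Cd3d (chromosome 9, 44981786 to 44987339, plus strand) and Cd3e (chromosome 9, 44998740 to 45009627, minus strand) gave 30 and 29 UMIs in 13 and 14 cells. The alpha chain constant gene Trac (chromosome 14, 54220521 to 54224206, plus strand) gave 29 UMIs in 13 cells. The beta chain constant genes Trbc1 and Trbc2, near-identical copies between which reads can be divided, gave 24 and 17. These 6 genes together gave 168 UMIs in 21 cells against 0 in double knockout cells, so the sum was at least 29.0-fold lower there. The same 6 genes gave 32 UMIs in 20 of the 2402 Apoe knockout cells outside cluster 20 and 7 UMIs in 4 of the 5462 double knockout cells outside it. Cluster 20 therefore held 21 of the 41 Apoe knockout cells with such a UMI, and of those outside it 7 lay in cluster 13, a cluster of the authors' immune class. Of the 7 UMIs in the double knockout cells, 4 lay in 1 cell of cluster 13.

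Signalling genes next to the receptor were present in the same cells. Cd28, the costimulatory receptor, gave 32 UMIs in 16 Apoe knockout cells. Lck, the kinase that phosphorylates CD3, and Lat, the adaptor downstream, gave 14 and 12. Ptpn22, a phosphatase that restrains the receptor signal, gave 49 UMIs in 16 cells, and the adaptors Grap2 and Fyb gave 32 and 30. All 6 of these genes were at 0 UMIs in the double knockout cells. Of the signalling list, chosen after the data were seen, 6 of the 6 members with at least 20 UMIs over both libraries were lower in the double knockout by the rule of size given below, beside 21.9% of all genes tested, and the sum was 52.9-fold lower (17.9 to 258), from 307 to 3 UMIs.

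The rule of size called a gene higher or lower where the CPM ratio between the libraries was at least 2 with an interval that did not hold 1. Of the 643 genes with at least 20 UMIs over both libraries in cluster 20, 141 were lower (21.9%) and 84 higher (13.1%) in the double knockout cells, and the median log2 ratio over the 643 was −0.16. The balance turned when each cell was thinned to 500 UMIs, with 34 genes higher and 25 lower of the 176 that reached 20 UMIs. Of the T cell list 7 of 7 such genes were lower, among them Cd3d, Cd3e, Cd3g, Trac, Trbc1 and Cd28. With members down to 5 UMIs, the median log2 ratio over 16 T cell genes was at or below −1.51, against −0.05 over the 3179 genes with as many UMIs. The T cell value is a bound set by the floor and not an estimate of the fold. The clustering used these genes, and a gene at 0 in a library reached 20 UMIs through the other library alone. These counts and those of the other lists, above and below, therefore describe the cells and support no direction.

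General leukocyte genes followed the T cell genes. Ptprc (chromosome 1, 138062861 to 138175708, minus strand), which encodes the phosphatase CD45, gave 72 UMIs in 19 Apoe knockout cells against 0 in double knockout cells, at least 12.4-fold lower. Cd52 (chromosome 4, 134082448 to 134095082, minus strand), a lymphocyte surface glycopeptide, gave 56 UMIs in 17 cells against 0, at least 9.65-fold lower. Laptm5, a lysosomal protein of blood cells, gave 45 against 0, and the GTPase gene Rac2 25 against 0. The list of 20 leukocyte genes gave 383 UMIs in 23 of 26 Apoe knockout cells and 4 UMIs in 3 of 27 double knockout cells, a 49.5-fold lower level in the latter (19.2 to 183). All 5 of its genes with at least 20 UMIs were lower, beside 21.9% of all genes tested. Its median log2 ratio over 18 genes was at or below −1.11, a bound that moved to −0.33 in the deeper cells with a low mitochondrial share and to −2.17 over the 6 genes left after thinning. Thinned to 500 UMIs, a UMI of this list was seen in 84.6% of Apoe knockout cells and 7.41% of double knockout cells. The SMC class of the same libraries stood at 5.08% and 3.59%. The immune-class cluster 13 stood at 80.6% and 35.8%, and the endothelial cluster 9 at 35.7% and 18.8%.

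Of the 6 genes given as markers of the cluster, all were lower in the double knockout cells, beside 21.9% of all genes tested. Il7r, Ptprc, Cd52, Cd3e and Trac were at 0 there, so they reached 20 UMIs through the Apoe knockout library alone. The sum of the 6 markers fell from 413 UMIs to 1 (214-fold lower, 38.1 to 8456). Ccl5 (chromosome 11, 83525778 to 83530518, minus strand), a chemokine made by effector and memory T cells and natural killer cells, was the highest of them at 2863 CPM, with 167 UMIs in 12 Apoe knockout cells and 1 UMI in 1 double knockout cell (86.4-fold lower, 15.3 to 3431). Il7r (chromosome 15, 9505788 to 9530176, minus strand), the receptor for the survival cytokine interleukin 7, gave 60 UMIs in 11 cells against 0, at least 10.3-fold lower. Both genes were uneven among the 26 cells.

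**Figure D2:**
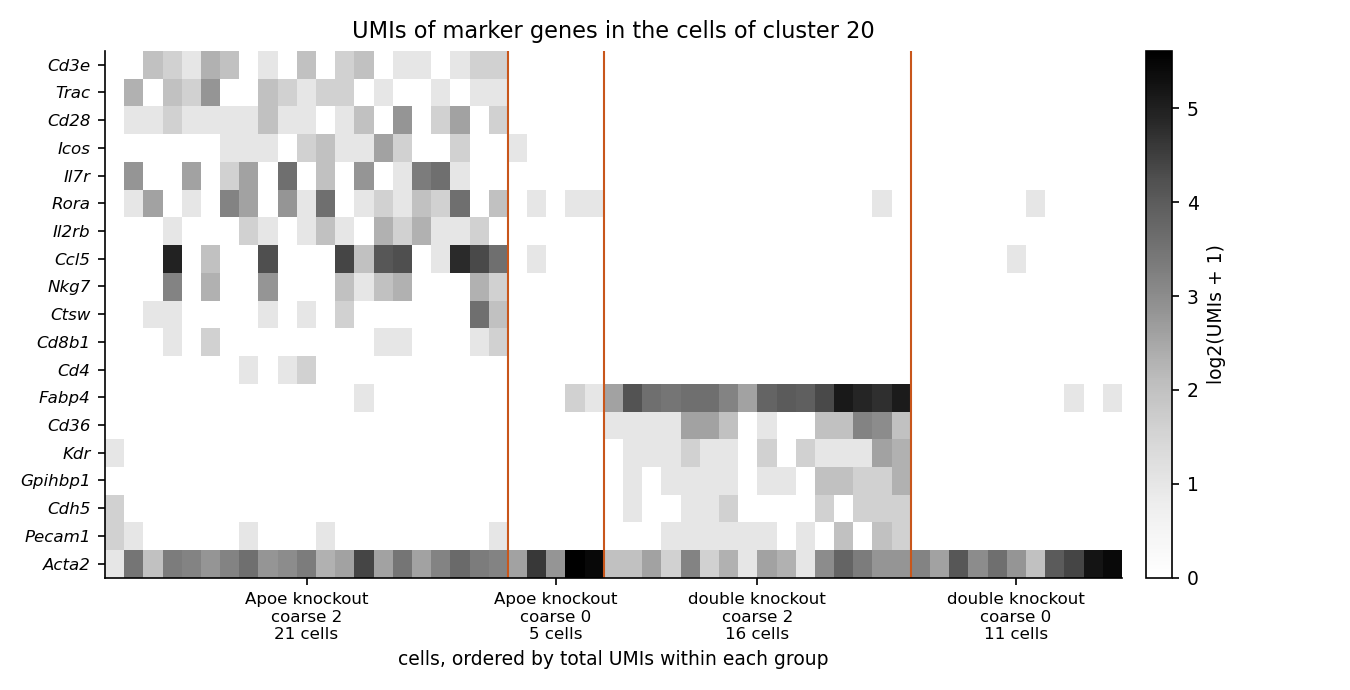
The heat map shows log2(UMIs + 1) of 19 marker genes (y axis) in each of the 53 cells of cluster 20 (x axis), divided by library and coarse group and ordered by total UMIs within each. Cd3e to Cd4 fill in mostly in the 21 Apoe knockout cells of coarse group 2, Fabp4 to Gpihbp1 in the 16 double knockout cells of coarse group 2, and Acta2 is present in every group.

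The 21 Apoe knockout cells with a receptor UMI differed among themselves. Cd8b1, the beta chain of the CD8 coreceptor, was seen in 6 of them and Cd4 in 3, and no cell had both. Nkg7 (chromosome 7, 43437073 to 43438249, plus strand), which encodes a cytotoxic granule protein, gave 35 UMIs in 9 cells, among them all 6 with Cd8b1 and 0 of the 3 with Cd4. Cd8b1 and Cd4 gave 8 and 4 UMIs in all, levels at which a lack in 1 cell says little. All 9 Nkg7 cells held Ccl5, from 3 to 30 UMIs each with a median of 18 and a sum of 138. Among the 12 cells without Nkg7, Ccl5 gave 28 UMIs in 2 cells, 27 of them in 1 cell.

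Il7r and Rora had the other distribution. Il7r gave 53 UMIs in 9 of the 12 cells without Nkg7 (median 4, highest 11) and 7 UMIs in 2 of the 9 cells with it. Rora, a nuclear receptor of several lymphocyte lineages, gave 54 UMIs in 11 of 12 cells against 7 UMIs in 4 of 9. The median depth of the 9 and the 12 cells was 2334 and 1946 UMIs, and their depths overlapped cell by cell. Whether depth had a part in the division was not tested. Ctsw, a cysteine protease of cytotoxic lymphocytes, gave 18 UMIs in 5 of the 9 Nkg7 cells and 2 UMIs in 2 of the other 12. Genes that did not divide in this way were Cd28 (18 UMIs in 7 of 9 and 14 in 9 of 12), the inducible costimulator Icos (10 in 5 of 9 and 10 in 6 of 12) and Il2rb, a chain of the interleukin 2 receptor (11 in 6 of 9 and 12 in 6 of 12). The division by Nkg7 was chosen after the cells were seen, all cells come from 1 library, and no test of it was made.

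**Figure D3:**
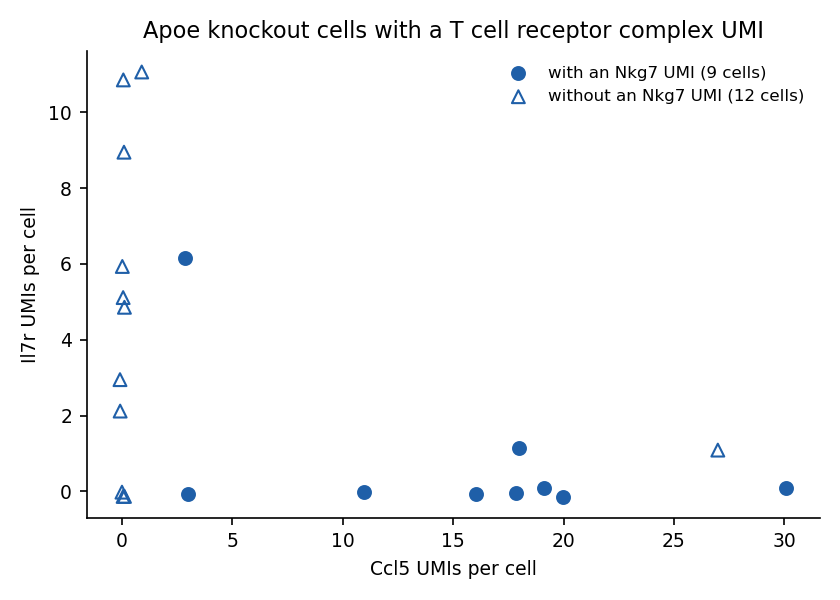
Each point is 1 of the 21 Apoe knockout cells with a T cell receptor UMI, with Ccl5 UMIs on the x axis and Il7r UMIs on the y axis, marked by whether the cell had an Nkg7 UMI and moved slightly at random so that points can be told apart. The 9 Nkg7 cells lie between 3 and 30 Ccl5 UMIs and mostly at 0 Il7r UMIs, and 9 of the other 12 cells have Il7r UMIs.

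The lists of residency and of T cell signalling and activation genes were read next. Rgs1, a regulator of chemokine receptor signals, gave 41 UMIs and Itga4, the alpha 4 integrin, 34, both against 0 in the double knockout cells. Of the residency list, 3 of 4 genes with at least 20 UMIs were lower in the double knockout (Il7r, Rgs1, Itga4), beside 21.9% of all genes tested. The signalling and activation list, whose genes many cell types express, gave 244 UMIs against 64 in 20 of the 27 double knockout cells, a 1.97-fold lower sum (1.49 to 2.64), beside a 2.04-fold higher sum in the SMC class. Of its 5 genes with at least 20 UMIs, 4 were lower, while Nfkbia, an inhibitor of NF-kB, made up 50 of the 64 UMIs (1.76-fold higher, 1.17 to 2.63). Nr4a2, a nuclear receptor induced by receptor signalling, gave 55 UMIs against 4 (7.11-fold lower, 2.62 to 27.0), and Tnfaip3, another such inhibitor, 38 against 2 (9.83-fold lower, 2.54 to 84.1). Ccl4, a chemokine of activated T cells and macrophages, gave 40 UMIs in 7 cells against 0. Part of the Ccl4 signal lay outside coarse group 2, which held 31 of the 40 UMIs.

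The 12 genes with the lowest ratio between the libraries were Ccl5, Emb, Hspa1b, Fryl, Rora, Nrip1, Dock10, Pim1, Slc38a1, Vps37b, Cblb and Fam107b. Emb, which encodes the transporter partner embigin, gave 65 UMIs against 1 (33.6-fold lower, 5.82 to 1348), and Rora 64 against 2 (16.5-fold lower, 4.40 to 140). Vps37b, an endosomal sorting subunit, gave 74 against 0, at least 12.8-fold lower. Cblb, a ubiquitin ligase that restrains T cell activation, gave 24 against 1. These are not genes of T cells only: in the SMC class of the Apoe knockout library Emb stood at 235 CPM and Rora at 247 CPM, against 1115 and 1097 CPM in cluster 20. Hspa1b was also lower in the SMC class of the double knockout library, at 264 CPM against 1533 CPM.

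Within the Apoe knockout library, the 12 genes with the highest ratio of cluster 20 over all other cells included Cd3g, Nkg7, Cd3d, Icos, Ctsw, Cd3e, Cd28, Skap1, Trac, Trbc1 and Il2rb. Over these the ratios ran from 746-fold for Il2rb to 2953-fold for Cd3g, the latter from 39 UMIs against 3 in all other cells (939 to 14935). Of the 974 genes with at least 10 UMIs in these cells, 402 (41.3%) were higher by the rule of size, among them 12 of 12 T cell genes and 13 of 13 leukocyte genes. None of these leading genes is one by which an endothelial cell is known. The endothelial list gave 22 UMIs in 8 of the 26 cells, 0.377 per 1000 (0.236 to 0.571), against 3.55 per 1000 in cluster 9 of the same library.

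Lists for other blood cells were low. The macrophage list gave 20 UMIs in Apoe knockout cells, 12 of them in a single coarse group 0 cell of the SMC class, and 1 UMI in double knockout cells, with Adgre1, Csf1r and Mrc1 at 0 in both. The mast cell, erythroid and platelet lists gave 0 UMIs in both. Genes by which natural killer, gamma-delta and regulatory T cells are told from other lymphocytes were mostly not in the table analysed here: 4 of 16 natural killer and cytotoxic genes and 0 of 13 gamma-delta genes were in it. The type 2 innate lymphoid list gave 135 UMIs against 2, of which Rora gave 64 and Il7r 60 in the Apoe knockout cells.

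In the double knockout library, the endothelial list gave 120 UMIs, or 3.98 per 1000 (3.30 to 4.76), 10.5-fold above the Apoe knockout cells (6.66 to 17.5). All 120 lay in the 16 cells of coarse group 2, at 2 to 19 UMIs per cell with a median of 6, and the 11 coarse group 0 cells held 0. Thinned to 500 UMIs, 16 of 27 double knockout cells (59.3%) had an endothelial UMI, against 3 of 26 Apoe knockout cells (11.5%). Elsewhere in the double knockout library the share was 80.6% in cluster 9 and 9.41% in the SMC class. Unthinned, the last share was 17.7%. Of the list, 3 of 3 genes with at least 20 UMIs over both libraries (Kdr, Flt1 and Pecam1) were higher in the double knockout cells. This stands beside 13.1% of all genes tested, and Kdr and Flt1 reached 20 UMIs through the double knockout cells alone. The median log2 ratio over 9 genes of the list was 3.27.

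Kdr (chromosome 5, 75932827 to 75978458, minus strand) and Flt1 encode receptors for vascular endothelial growth factor. Each gave 23 UMIs against 1 (44.5-fold higher, 7.22 to 1832), in 13 and 12 of the double knockout cells. Pecam1, the adhesion molecule to which the named beads bind, gave 15 UMIs against 6 (4.83-fold higher, 1.77 to 15.2). Cdh5, the cadherin of endothelial junctions, gave 13 against 2. The Pecam1 level in the coarse group 2 cells was 843 CPM (472 to 1390), lower than the 2169 CPM of cluster 9 and the 2337 CPM of cluster 19, another endothelial cluster, in the same library.

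Several genes of lipid uptake were among those higher in the double knockout cells. Fabp4 (chromosome 3, 10204088 to 10208576, minus strand), a fatty acid binding protein of capillary endothelium, adipocytes and macrophages, gave 263 UMIs in 18 of 27 double knockout cells and 4 UMIs in the Apoe knockout cells (127-fold higher, 49.1 to 470). It was present in all 16 cells of coarse group 2, with a median of 13.5 and up to 34 UMIs per cell. Cd36 (chromosome 5, 17781690 to 17888801, minus strand), a fatty acid and lipoprotein receptor, gave 42 UMIs in 13 cells against 0, at least 27.1-fold higher. Gpihbp1 (chromosome 15, 75596628 to 75599481, plus strand), the anchor of lipoprotein lipase, gave 21 UMIs in 12 cells against 0, at least 13.5-fold higher. Scarb1, a lipoprotein receptor, gave 11 against 0, and Rbp7, a retinol binding protein, 15 against 0. Both genes were under the 20 UMIs that a call needs. No Apoe knockout cell of cluster 20 held Cd36, Gpihbp1, Scarb1 or Rbp7.

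Other genes high in the double knockout cells mark capillaries or endothelium at large. Ly6c1 (chromosome 15, 75044018 to 75048830, minus strand) gave 48 UMIs in 14 cells against 1 (92.8-fold higher, 15.9 to 3742); it has the near-copy Ly6c2, so its reads are uncertain. Plvap, which forms the diaphragms of fenestrae, gave 21 UMIs in 9 cells against 0, at least 13.5-fold higher. Sparcl1, a matrix glycoprotein, gave 38 against 2 (36.7-fold, 9.50 to 314), and Cxcl12, a chemokine of stromal and endothelial cells, 37 against 2 (35.8-fold, 9.23 to 306). The immediate early gene Ier3 and the transcriptional inhibitor Id3 were also among the 12 highest, at 9.35-fold and 7.74-fold, as was Pls3, an actin bundler, at 7.74-fold.

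A list of 16 genes of microvascular endothelium, chosen after the data were seen and with 13 genes in the table, gave 464 UMIs against 11 (81.6-fold, 45.2 to 165). In coarse group 2 alone it was 462 against 4 (295-fold, 115 to 1088), at 6 to 61 UMIs per double knockout cell with a median of 24. All 6 of its genes with at least 20 UMIs were higher, beside 13.4% of all genes tested in coarse group 2. Per 1000 UMIs the list stood at 25.9 in these 16 cells. In the same library it stood at 0.986 in cluster 9, 2.85 in cluster 19 and 0.826 in the SMC class. Fabp4 alone, a gene also of adipocytes, gave 261 of the 462 UMIs. Cluster 15, described below, was not in this comparison and held Fabp4 at 15127 CPM. Thinned to 500 UMIs, 17 of 27 cells had a UMI of the list. The share was 38.8% in cluster 9 and 20.8% in the SMC class, and 36.9% in the latter unthinned. In coarse group 2 the highest Apoe knockout cell held 1 UMI of the list and the lowest double knockout cell 6. Because the list was chosen with these cells known, that gap is a description only.

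**Figure D4:**
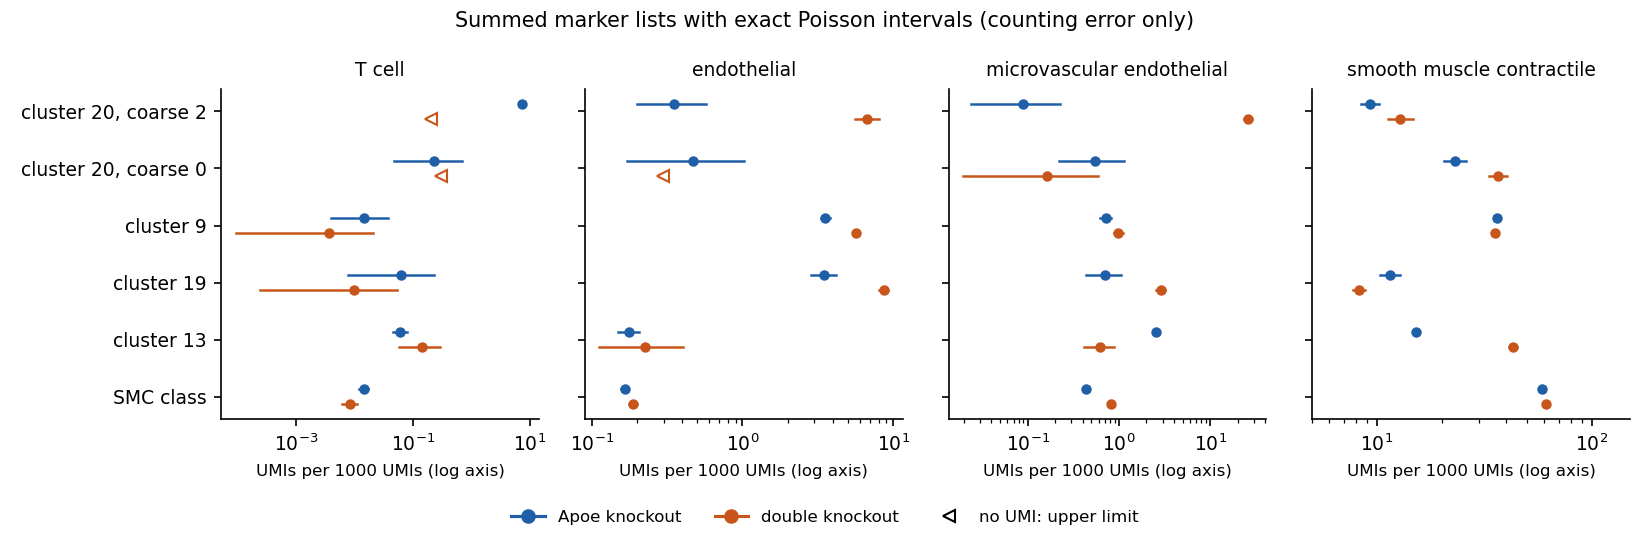
Points give the summed UMIs of 4 gene lists per 1000 UMIs (x axis, log scale) in 6 populations of each library, with exact Poisson intervals, and open triangles the upper limit where no UMI was seen. The T cell list stands highest in the Apoe knockout cells of coarse group 2 (7.27) and the microvascular endothelial list in the double knockout cells of coarse group 2 (25.9), while the contractile list is highest in the SMC class.

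The endothelial clusters 9 and 19 of the double knockout library held these genes at other levels. Cd36 was at 0 and 9.70 CPM there against 2359 CPM in the coarse group 2 cells, Kdr at 7.42 and 48.5 against 1292, and Fabp4 at 185 and 960 against 14660. Gpihbp1 and Cd300lg, an endothelial surface glycoprotein, had 0 UMIs in both clusters and 21 and 10 in the 16 cells. A list of large artery endothelial genes, also chosen after the data were seen, stood the other way, at 1.46 per 1000 UMIs in the 16 cells against 7.03 in cluster 9 and 6.56 in cluster 19. Within that list Vwf, Sema3g, Gja5 and Bmx had no UMI in the double knockout cells of cluster 20. Other members were seen, since the list gave 35 UMIs in these cells, 26 of them in coarse group 2. There its sum was 4.43-fold higher than in the Apoe knockout cells (2.26 to 8.998), which held 15 UMIs. The 1 gene of the list with at least 20 UMIs over both libraries there was also higher in the double knockout cells, beside 13.4% of all genes tested. That call describes 1 gene and not the list. In profile, over 3116 genes, the 16 cells were closest to clusters 9 and 19 of their library (Pearson r of 0.675 for both, a description across genes that share cells and depth), followed by cluster 15 (0.629). The 21 Apoe knockout cells were closest to the immune-class cluster 13 of theirs (0.587), then cluster 19 (0.571) and cluster 9 (0.480).

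Cluster 15 of the double knockout library shared part of the signal. Its 80 cells, of which the authors called 59 smooth muscle, 16 modEC and 5 immune, held 138 UMIs of Cd36, Gpihbp1, Kdr, Rbp7 and Cd300lg together in 29 cells, beside 111 UMIs in 15 of the 27 cells of cluster 20. Fabp4 stood at 15127 CPM in cluster 15. Unlike cluster 20, it also held adipocyte genes, with 157 UMIs of the hormone gene Adipoq, 153 of the lipid droplet gene Cidec and 21 of Plin1, all at 0 in the double knockout cells of cluster 20. Cfd, an adipocyte protease, gave 2901 UMIs in cluster 15 and 13 in cluster 20, and Car3 1316 and 2. In the double knockout SMC class without cluster 15, Cfd stood at 16.4 CPM and Cd36 at 1.46 CPM. The part of this RNA in the Fabp4 and Cfd of cluster 20 was not tested. Cluster 15 was chosen for this comparison after its values were seen.

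Within the double knockout library, the 12 genes with the highest ratio of cluster 20 over all other cells were Kdr, Gpihbp1, Rbp7, Cd36, Scarb1, Gngt2, Adgrl4, Ly6c1, Adgrf5, Ctla2a, Cyyr1 and Plvap. The ratios ran from 24.5-fold for Plvap to 248-fold for Kdr (131 to 471). Of 431 genes with at least 10 UMIs, 112 (26%) were higher, among them 6 of 6 endothelial and 8 of 8 microvascular genes. No gene was among the 12 in both libraries. Ctla2a, a protease inhibitor gene of T cells and of endothelium, was carried by 12 cells of each library, with 39 UMIs in Apoe knockout and 29 in double knockout cells (1.44-fold higher, 0.864 to 2.39). The Gimap GTPase genes, which both lymphocytes and endothelium express, gave 50 UMIs against 5, with Gimap6 at 15 and 2.

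Contractile smooth muscle genes were found in every cell, at a higher summed level in coarse group 0 than in coarse group 2. The list of 13 genes gave 23.1 and 36.6 UMIs per 1000 in coarse group 0 of the Apoe and double knockout libraries, 9.25 and 12.9 in coarse group 2, and 58.9 and 61.1 in the SMC class. The coarse group 0 cells of the Apoe knockout held 9 to 113 contractile UMIs each (median 51), and those of the double knockout 10 to 109 (median 36). Coarse group 2 cells held 4 to 45 (median 17) and 2 to 29 (median 12), so the coarse groups overlapped cell by cell. The median gene of the list stood at 41.8% and 38.6% of its SMC level in coarse group 0, at 14.4% and 19.8% in coarse group 2, and at 60.5% and 57.7% in cluster 9. All 53 cells held at least 2 contractile UMIs. Whether these came from the cells themselves or from free RNA was not tested.

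**Figure D5:**
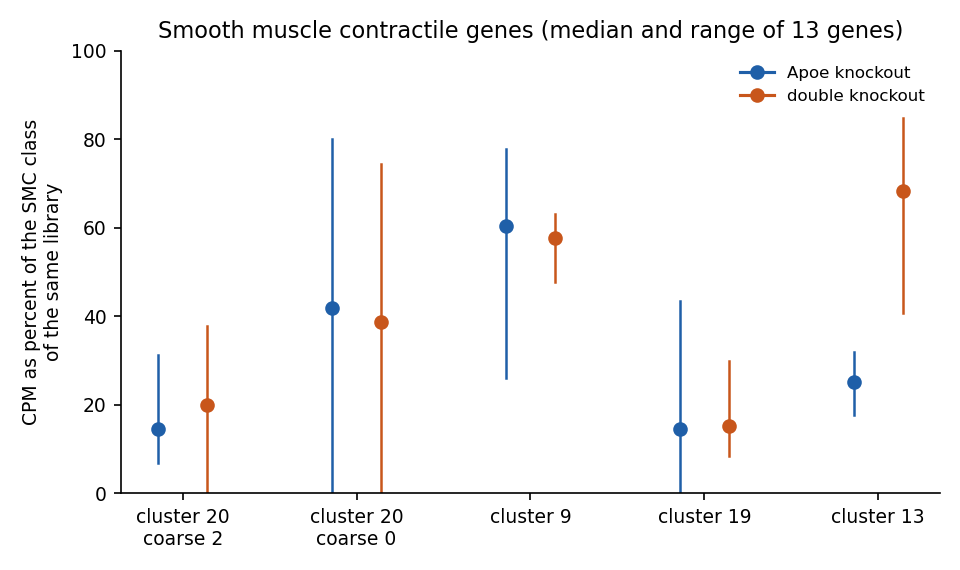
Points give the median over 13 contractile smooth muscle genes of the level as a percentage of the level in the SMC class of the same library (y axis), and lines the lowest to the highest gene, for the coarse groups of cluster 20 and clusters 9, 19 and 13. Coarse group 2 lies at 14.4% and 19.8%, below coarse group 0 at 41.8% and 38.6%.

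The coarse group 0 cells had no leading cell type genes over the other cells of their library. Of the cells outside cluster 20, 1535 of 2402 and 4406 of 5462 were of the SMC class, so smooth muscle genes could hardly lead. The 5 Apoe knockout cells held 12815 UMIs and the 11 double knockout cells 12355, with a median mitochondrial share of 1.65% and 7.54%, the latter up to 18.7%. The T cell list gave 3 and 0 UMIs, the 3 in 1 cell of 693 UMIs. The endothelial list gave 6 and 0, and the microvascular list 7 and 2. Against all other cells of the library, the highest ratios were 4.07-fold in the Apoe knockout (Ndufa2, a subunit of respiratory complex I) and 3.59-fold in the double knockout (Gas5, a noncoding RNA that hosts small nucleolar RNAs). Their profiles were closest to cluster 1 of the same library, with r of 0.692 and 0.734. Of 174 genes with at least 20 UMIs, 21 (12.1%) were higher and 19 (10.9%) lower in the double knockout. Mitochondrial genes were among the higher ones, beside the higher mitochondrial share of these cells. Ribosomal protein genes were among both the higher and the lower ones. The part of cell quality in these calls was not tested. The intermediate filament gene Vim was 3.79-fold higher (2.28 to 6.56) and Fos 3.59-fold lower (2.11 to 6.42).

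With coarse group 0 left out, a comparison added after the data were seen, 62 of 462 genes were higher (13.4%) and 124 lower (26.8%) in the double knockout cells. Fabp4 was 667-fold higher (119 to 26449), from 1 UMI to 261, and Ccl5 at least 21.6-fold lower, from 166 UMIs to 0. All 7 T cell and 5 leukocyte genes with at least 20 UMIs were again lower and all 6 microvascular and 3 endothelial genes higher.

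Stress genes moved in cluster 20 as well as elsewhere. The heat shock list fell from 1052 to 232 UMIs, 2.34-fold lower in the double knockout cells (2.03 to 2.71), beside a 1.79-fold lower level in the SMC class. Of its 11 genes 7 were lower, beside 21.9% of all genes tested, such as the chaperone genes Hspa1b (97 against 2 UMIs, 25.1-fold) and Hspa1a (88 against 7, 6.50-fold), near-identical copies, and Hsp90aa1 (188 against 31, 3.14-fold), while Hspb1 was 2.66-fold higher, beside 13.1% of all genes. The interferon-induced list was 3.70-fold higher (2.42 to 5.74), from 35 to 67 UMIs, of which Ifitm3, an antiviral membrane protein gene, made up 13 and 51, and it was 1.84-fold higher in the SMC class and 2.49-fold higher in cluster 9. The immediate early list was 1.53-fold higher in cluster 20 (1.31 to 1.79), 2.60-fold higher in coarse group 2 and 2.05-fold lower in coarse group 0, against 1.15-fold lower in the SMC class. Since the cells differ in kind between the libraries, an effect of the genotype on these genes and a difference between cell kinds cannot be told apart.

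Other lists held few UMIs. MHC class II genes gave 9 UMIs in Apoe knockout and 0 in double knockout cells, and the monocyte and neutrophil list 5 and 0. The lymphatic endothelial list gave 0 and 2. The B cell list gave 9 and 11, the fibroblast list 93 and 39, the pericyte list 30 and 37, and the cycling list 37 and 13. No cell had at least 2 UMIs of both the T cell and the endothelial list.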

How the data were processed

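The members and gene lists were chosen with earlier results of these data known; 36 lists were fixed in the design, and 5 lists (T cell receptor core, microvascular and large artery endothelial, Gimap, T cell receptor signalling), the coarse groups and cluster 15 were added after the data were seen. Cells were captured with the 10x Genomics 3' v2 kit, per the labels' protocols. The deposited counts are UMIs per cell and gene, made with Cell Ranger, Seurat and mm10 per the submitters' processing notes, without versions. The deposited mitochondrial ratio is a fraction. Class and cluster are of another kind, names and numbers assigned by the authors. No cell had under 500 UMIs before the gene filter, and each of 14714 genes was seen in at least 7 entries, so that genes of rare cells can be missing. Of 10345 deposited entries, 4856 held 2428 Apoe knockout barcodes in 2 identical copies, which were counted once. 0 columns of other samples were left out.

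UMIs were summed over cells and scaled to CPM. Sums carry exact Poisson, shares Clopper-Pearson and ratios conditional binomial intervals (95%), covering counting error only. A ratio against 0 used a floor of 3 UMIs over the population. Genes were called at a ratio of at least 2, an interval not holding 1 and at least 20 UMIs. This rule was tested on Poisson counts simulated from the pooled profile of cluster 20, which hold no differences between cells. List medians used members with at least 5 UMIs. Named genes were the 12 highest and 12 lowest called ratios, the 12 highest within a library with at least 10 UMIs (coarse groups by the same rule), the 6 given markers and list members with at least 5 UMIs, without sex-linked, predicted, immunoglobulin, haemoglobin, ribosomal protein and mitochondrial genes. List members under 5 UMIs are named as low or at 0. A gene that this rule names is not reported here. No doublet caller was run. Python 3.11.15, numpy 2.4.6, scipy 1.17.1, pandas 2.3.3 and matplotlib 3.10.9 were used. Coordinates are from the mm10 annotation.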

Additional observations from a re-analysis of the deposited data

How the results depend on the processing

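Over all results and alternatives, 47 values moved by less than the counting interval (for a list, that of its summed ratio) or, for counts of genes, 1.5 times, 13 moved by more, and no list median or share changed sign. With each cell thinned to 500 UMIs, 34 genes were higher and 25 lower of 176, so that the excess of lower genes became an excess of higher ones; the cause of that turn was not tested. With a minimum of 50 UMIs the counts were 28 and 42 of 213, and with a minimum of 10 UMIs 169 and 215 of 1536. The median log2 ratio of the T cell list was at or below −0.79 for cells of at least 1000 UMIs whose mitochondrial share was under 10%, and at or below −1.10 in coarse group 2, an alternative chosen after seeing the data; both bounds move with the floor against a smaller total. The bound of the leukocyte list was −0.33 in the former cells, −0.65 in coarse group 2 and −2.17 after thinning. The median of the contractile list was 0.83 in the former cells and 0.80 without the deepest cell of each library. That of the endothelial list was 1.22 after thinning, 1.72 from the mean of each cell's CPM and 2.40 with members down to 1 UMI. No paired analysis was possible because there was 1 library per genotype. No replicate could be left out for the same reason. The depth of the double knockout cells limits what a count of 0 shows there. The sizes of cluster 20 in the libraries (1.07% and 0.492% of cells) were not compared, because its leading genes differed between them.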
